A study of Mus musculus with 2 samples.

Results

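Macrophages that take up debris, hormones and damaged molecules carry a recognisable set of genes, and 10 of them were followed here through the immune cells of mouse tumours: Mrc1, Cd163, Msr1, Folr2, Lyve1, Fcna, Chil3, Retnla, Maf and Selenop. They were chosen by symbol, not by level, and are 10 of the 34097 genes listed in the count tables. The study sequenced 2 single-cell libraries of lung cancer tumours grown from LLC, the mouse Lewis lung carcinoma line. Its aim was to describe the tumour's immune surroundings after Gfpt2 was lowered. Gfpt2 encodes an enzyme that starts hexosamine synthesis, which feeds protein glycosylation. The control group was 1 library from control tumour tissue, and the knockdown group was 1 library from tumour tissue with shRNA against Gfpt2. The labels call the tumours xenografts; the host strain, sex and age, the control construct, the cells that carried the shRNA and the number of pooled animals are not given in the sources used here. With 1 library per group there is no replicate, so no test over animals could be made and no p-value is given. Every interval below is a 95% counting interval, which covers counting error within these libraries and nothing else.

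Of the receptors, Mrc1 encodes the mannose receptor, Msr1 the class A scavenger receptor for modified lipoproteins, Cd163 the receptor for haemoglobin bound to haptoglobin, Folr2 a folate receptor and Lyve1 a hyaluronan receptor. Of the secreted proteins, Fcna encodes ficolin-A, a lectin that starts the complement cascade, Chil3 encodes the chitinase-like protein Ym1, Retnla encodes resistin-like alpha, and Selenop carries selenium between cells. Maf encodes a transcription factor of macrophages and some T cells. Mrc1, Chil3 and Retnla are classic genes induced in mouse macrophages by interleukin-4 through STAT6, while Folr2, Lyve1 and Cd163 are better known from resident tissue macrophages. Chil3 is also made by Ly6C-high monocytes and by neutrophils.

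Promoter windows are shown for 4 members: Chil3 and Fcna, which differed most between the libraries, Mrc1, the receptor with the most UMIs, and Retnla, the classic STAT6 target, which was almost undetected. Each line gives the 250 bases before the start of transcription, 5′ to 3′ on the gene's strand, from RefSeq on GRCm38.p6. The windows are chr3:106167565-106167814 (minus strand) for Chil3, chr2:25627975-25628224 (minus) for Fcna, chr2:14229164-14229413 (plus) for Mrc1 and chr16:48842359-48842608 (plus) for Retnla. Capitals mark matches to 3 motifs searched on both strands: the STAT6-type site TTCNNNNGAA, the ETS-type core GGAAGT and the Maf-type site TGCTGAC. Where the match lies on the opposite strand, the capitals show its reverse complement.
Chil3: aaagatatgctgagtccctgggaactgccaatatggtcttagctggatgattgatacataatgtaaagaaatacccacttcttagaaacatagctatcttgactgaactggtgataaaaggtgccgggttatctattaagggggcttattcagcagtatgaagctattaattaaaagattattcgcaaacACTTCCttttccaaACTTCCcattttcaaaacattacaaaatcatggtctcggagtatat
Fcna: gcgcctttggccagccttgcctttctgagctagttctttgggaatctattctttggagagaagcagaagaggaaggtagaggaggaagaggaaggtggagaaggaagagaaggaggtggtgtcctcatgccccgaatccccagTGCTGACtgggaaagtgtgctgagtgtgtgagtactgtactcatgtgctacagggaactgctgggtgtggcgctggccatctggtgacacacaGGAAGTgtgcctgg
Mrc1: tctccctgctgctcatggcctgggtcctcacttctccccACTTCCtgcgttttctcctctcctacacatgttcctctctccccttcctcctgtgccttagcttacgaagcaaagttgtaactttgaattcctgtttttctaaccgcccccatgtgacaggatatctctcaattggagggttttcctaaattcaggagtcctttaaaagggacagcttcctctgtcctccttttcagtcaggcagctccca
Retnla: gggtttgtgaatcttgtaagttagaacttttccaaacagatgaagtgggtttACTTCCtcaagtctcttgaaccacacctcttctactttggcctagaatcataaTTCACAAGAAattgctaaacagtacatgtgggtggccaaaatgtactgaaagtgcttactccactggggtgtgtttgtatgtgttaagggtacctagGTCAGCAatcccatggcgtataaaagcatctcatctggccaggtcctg
The ETS-type core was present in windows of 6 of the 7 members that had one, all but Cd163, and in 19.7% of the 32851 promoter windows of this length. The Chil3 window holds it at bases 60 to 55 and again at 46 to 41 upstream of the start. The STAT6-type site, in 5.85% of all windows, was matched in Retnla at bases 145 to 136 and in Selenop, whose window is not shown, at bases 216 to 207. The Maf-type site, in 3.81% of all windows, was matched in Fcna at bases 107 to 101 and in Retnla at bases 48 to 42. A match describes letters only. The table had windows for 7 of the 10 members and none for Msr1, Lyve1 and Maf.

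The control library held 11977 cells with 165824226 unique molecular identifiers (UMIs, 1 per captured RNA molecule) and the knockdown library 12853 cells with 138402860 UMIs. After filters 10662 and 11450 cells were kept. The libraries shared 37 barcodes. Gfpt2 itself was read at 200 UMIs in control tumour-like cells and 52 in knockdown tumour-like cells, or 2.04 and 0.618 CPM (a gene's UMIs scaled to a common total for the class), a log2 ratio of -1.72 (-2.34 to -1.12). Macrophages, taken as cells with at least 10 UMIs of C1qa, C1qb and C1qc per 10,000, numbered 3996 in the control (median 5382 UMIs) and 4580 in the knockdown (median 3968 UMIs). Monocytes, with at least 20 UMIs of Lyz2 and under 5 of C1q per 10,000, numbered 144 (median 3267 UMIs) and 41 (median 2395 UMIs).

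The macrophages of the knockdown library carried more tumour RNA. A panel of 97 tumour genes stood at 13.3% of its tumour-cell level in control macrophages and at 30.8% in knockdown macrophages. Cells above 20% made up 459 of 3996 control macrophages and 1432 of 4580 knockdown macrophages. The macrophage receptor Csf1r, at 275 and 218 CPM, and Fcgr1, at 396 and 351 CPM, were also lower in the knockdown. Without cells above 20%, the panel stood at 5.32% and 5.30%, Csf1r at 303 and 302 CPM and Fcgr1 at 435 and 488 CPM. All 9 macrophage markers of the list were read in both libraries, with and without those cells. Levels, counts and related lists are therefore given for all macrophages and for the 3537 control and 3148 knockdown macrophages at or under 20%, called low-tumour macrophages below. Results by C1q bin and by cells that carried a given marker or member are for low-tumour macrophages alone. The panel and its limit were chosen after the data were seen. Its genes were set against C1q-rich cells alone, so genes of monocytes were not excluded, and it includes the monocyte marker Vcan. The part of monocyte RNA in the panel was not tested.

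Among all macrophages, 6 of the 10 genes were lower in the knockdown library (Mrc1, Msr1, Folr2, Fcna, Chil3 and Selenop) and 0 were higher, counting a gene from a log2 ratio of 0.32 in either direction and with no test behind the count. Of 10773 genes with at least 100 UMIs in either library, 5.79% were lower by that measure and 23.2% higher. Fcna and Chil3 reached 100 UMIs only in the control, where they are high, so that minimum itself favours counting them as lower. With the minimum set on the UMIs of both libraries together, the same 6 genes were lower, beside 6.16% of 11919 genes, and 0 higher, beside 24.7%. With the first minimum the median log2 ratio of knockdown over control was -0.59 over the 7 members with that many UMIs and 0.10 over all genes. With TMM scaling the all-gene median was -0.04, with 13.5% lower and 14.7% higher, and all 7 members, Maf included, were lower. Among low-tumour macrophages, 2 of the 10 genes, Folr2 and Chil3, were lower, beside 7.08% of 9804 genes, and 0 were higher, beside 6.49%. Chil3 again passed only through the control. With the minimum on both libraries together, Folr2, Fcna and Chil3 were lower, beside 7.49% of 10898 genes, and 0 members were higher, beside 8.82%. With the minimum on either library the median was -0.23 over the 6 members that passed and -0.00 over all genes. The members that passed were Mrc1, Msr1, Folr2, Chil3, Maf and Selenop, and Fcna in addition among all macrophages. Cd163, Retnla and Lyve1 passed in neither. Cycling genes, with 10 of 10 read in both libraries, summed to 630 and 556 CPM in all macrophages and to 532 and 288 CPM in low-tumour macrophages, the control first. Without cycling cells, 4 of the 6 members that passed were lower in all macrophages, beside 3.15% of genes, and their median was -0.33. The log2 ranges quoted with each gene are those that the counting intervals of both libraries allow.

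**Figure D1:**
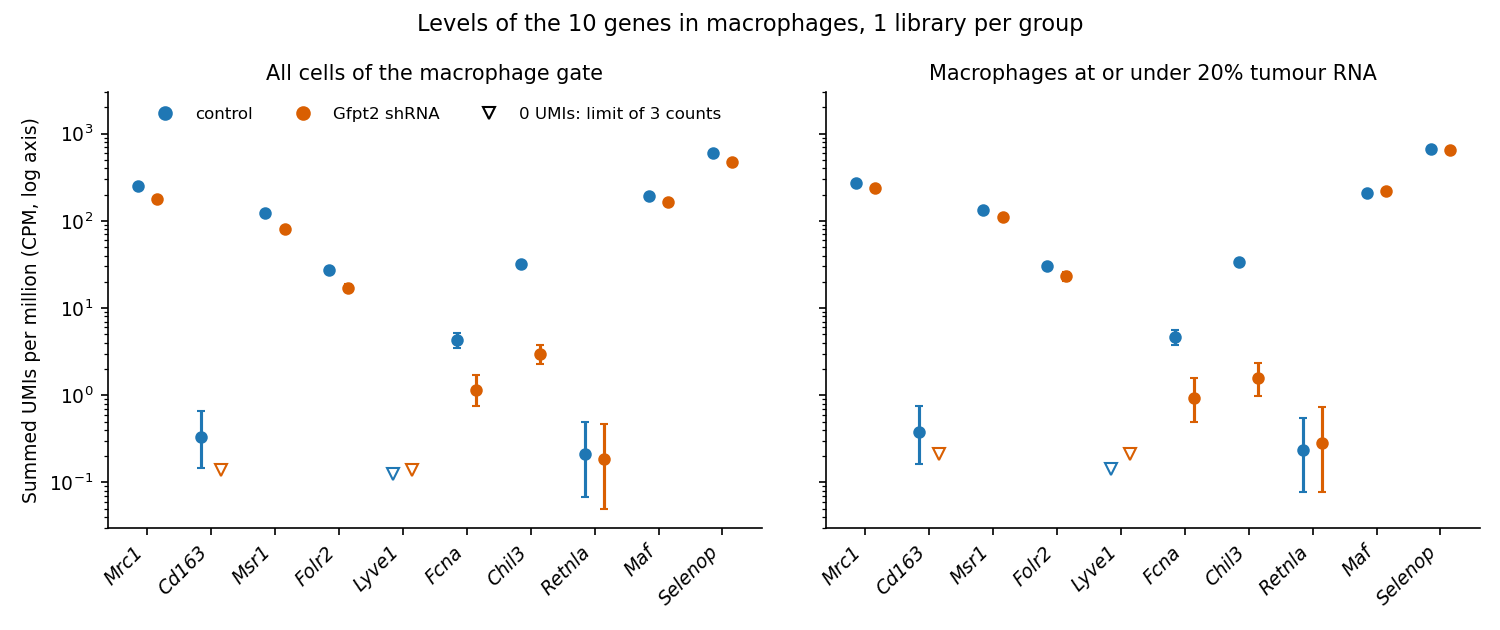
Summed UMIs as CPM (log axis) of each gene in macrophages of the control (blue) and Gfpt2 shRNA (orange) library, for all macrophages (left) and those at or under 20% tumour RNA (right). Bars are 95% counting intervals and triangles mark the limit set by 0 UMIs. The library points are far apart for Chil3 and Fcna. The comparison is between libraries within a gene, and the height of one gene against another is not interpreted.

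Of the receptors, Mrc1 was lower in the knockdown library, and less so in low-tumour macrophages. All macrophages held 5931 Mrc1 UMIs in the control, at 249 CPM (243 to 255), and 3865 in the knockdown, at 178 CPM (172 to 183), a log2 ratio of -0.49 (-0.57 to -0.40). In low-tumour macrophages the levels were 275 CPM (268 to 282) and 239 CPM (231 to 247), and the log2 ratio was -0.20 (-0.29 to -0.11). The control was thus above the knockdown in both sets, beyond counting error, but in the second by less than the 0.32 that counts as lower. Between bins of C1q content, given below, the order of the libraries was not the same. At a fixed 3000 UMIs per cell, 47.7% of control and 45.3% of knockdown low-tumour macrophages had an Mrc1 UMI. Before thinning the shares were 59.7% and 50.9%. Tumour-like cells, which should lack the gene, had an Mrc1 UMI in 0.333% and 0.351% of cells at the same fixed depth. Thinning left out 595 control and 1014 knockdown cells with fewer UMIs.

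Msr1 was read at 2903 and 1764 UMIs in all macrophages, or 122 CPM (117 to 126) against 81.1 CPM (77.4 to 85.0), a log2 ratio of -0.59 (-0.71 to -0.47). Low-tumour macrophages had 133 CPM (128 to 138) and 112 CPM (107 to 118), a log2 ratio of -0.25 (-0.38 to -0.13). The order of the libraries was the same in both sets, and the difference was smaller in the second. At 3000 UMIs per cell, 28.7% and 24.6% of low-tumour macrophages had an Msr1 UMI, against 0.270% and 0.234% of tumour-like cells. Folr2 was read at 656 and 366 UMIs, 27.5 CPM (25.5 to 29.7) and 16.8 CPM (15.2 to 18.6), a log2 ratio of -0.71 (-0.97 to -0.45). In low-tumour macrophages Folr2 stood at 30.4 CPM (28.1 to 32.9) and 23.0 CPM (20.6 to 25.6), a log2 ratio of -0.40 (-0.68 to -0.13). Folr2 was carried by few cells, with a UMI in 6.08% of control and 5.44% of knockdown low-tumour macrophages at 3000 UMIs per cell, against 0.083% and 0.059% of tumour-like cells. The unthinned shares were 9.73% and 6.51%.

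Cd163 and Lyve1, the haemoglobin and hyaluronan receptors among the members, were nearly unread. Cd163 was read at 8 UMIs in control macrophages, or 0.336 CPM, and at 0 in knockdown macrophages. In low-tumour macrophages the same 8 and 0 UMIs give 0.381 CPM (0.164 to 0.751) in the first library, while the 0 allows up to 0.213 CPM in the other, so these reads could not show whether the libraries differed. Elsewhere in the knockdown library Cd163 had 2 UMIs in tumour-like cells and 1 in cells of no class. Lyve1 had 0 UMIs in macrophages and monocytes of both libraries, and its only reads were 1 and 2 UMIs in endothelial cells. A count of 0 in all macrophages allows up to 0.126 CPM of Lyve1 for the control library and 0.138 CPM for the other. Retnla, the secreted member listed with interleukin-4 responses, was read at 5 and 4 UMIs in macrophages and 0 in monocytes. Its log2 ratio of -0.19 had a range of -3.29 to 2.79, and that of 0.25 in low-tumour macrophages a range of -2.84 to 3.23, so neither direction could be told at this depth.

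Chil3 differed most between the libraries. All macrophages held 752 Chil3 UMIs in the control, 31.6 CPM (29.4 to 33.9), and 64 in the knockdown, 2.94 CPM (2.27 to 3.76), which is 10.7-fold lower and a log2 ratio of -3.42 (-3.90 to -2.97). In low-tumour macrophages the counts were 716 and 22 UMIs, at 34.1 CPM (31.6 to 36.7) and 1.56 CPM (0.98 to 2.36), a 21.8-fold difference with a log2 ratio of -4.45 (-5.23 to -3.74). The difference was larger, not smaller, without the cells rich in tumour RNA. In the knockdown, 37 of the 64 UMIs came from 1 such cell. In the control the UMIs came from 147 macrophages, and 16 of these with 10 or more UMIs held 54.1% of them.

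Fcna followed the same order at lower counts. Ficolin-A transcripts numbered 102 in control macrophages, 4.28 CPM (3.49 to 5.20), and 25 in knockdown macrophages, 1.15 CPM (0.74 to 1.70), a log2 ratio of -1.90 (-2.81 to -1.04). In low-tumour macrophages they numbered 97 and 13, a log2 ratio of -2.32 (-3.52 to -1.25). At 3000 UMIs per cell, 1.05% and 0.281% of low-tumour macrophages had a UMI of Fcna, against 0.312% and 0.176% of tumour-like cells, so the knockdown share was close to that background.

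Selenop and Maf differed by a log2 ratio of 0.10 or less in low-tumour macrophages. Selenop was read at 14433 and 10173 UMIs in all macrophages, 606 CPM (596 to 616) and 468 CPM (459 to 477), a log2 ratio of -0.37 (-0.43 to -0.32). In low-tumour macrophages it stood at 666 and 647 CPM, a log2 ratio of -0.04 (-0.10 to 0.01), a range that includes 0. Maf was read at 4532 and 3588 UMIs, 190 CPM (185 to 196) and 165 CPM (160 to 170), a log2 ratio of -0.21 (-0.30 to -0.12). In low-tumour macrophages it stood at 208 and 222 CPM, a log2 ratio of 0.10 (0.00 to 0.19). For Maf the order of the libraries thus turned with the cells counted. The share of low-tumour macrophages with a UMI at 3000 UMIs per cell was 71.8% and 75.6% for Selenop and 42.3% and 43.6% for Maf.

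**Figure D2:**
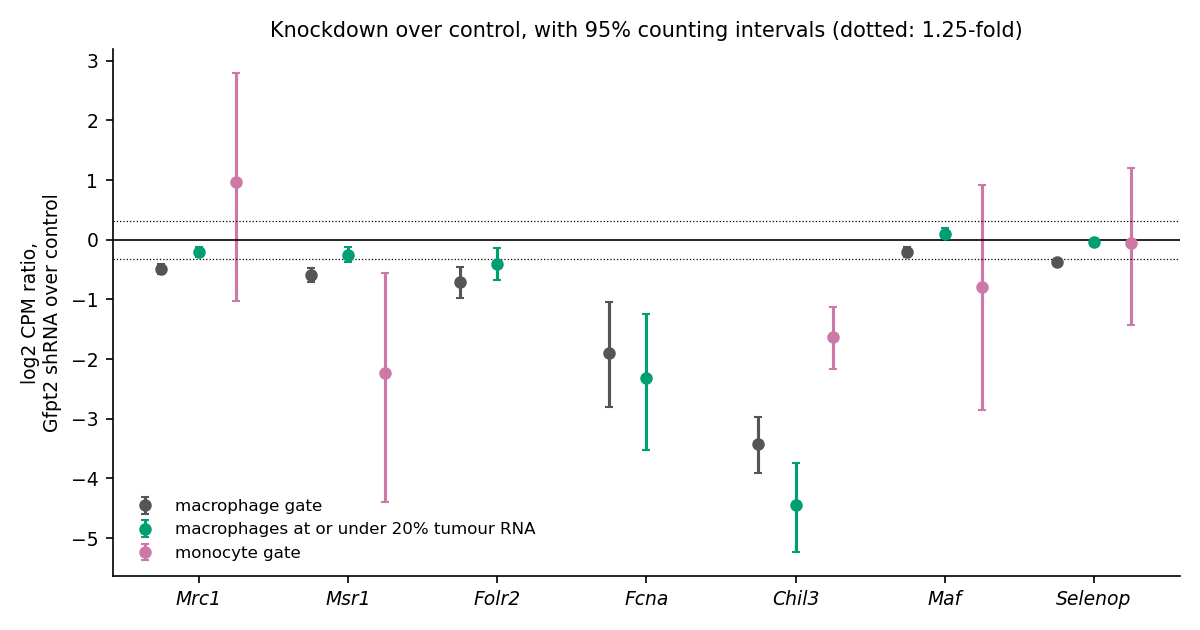
Log2 ratio of CPM, Gfpt2 shRNA over control, for the 7 genes with enough counts, in all macrophages (grey), low-tumour macrophages (green) and monocytes (pink). Bars are the ranges that the 95% counting intervals of both libraries allow and dotted lines mark 0.32 in either direction. Chil3 lies below the line in all 3 sets, while Maf and Selenop lie between the lines in low-tumour macrophages.

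In monocytes, Chil3 was the single member with at least 100 UMIs, which it reached only in the control, so its values are given as a description. Of 785 genes with that many UMIs in either library 26.4% were lower and 13.1% higher, and of 979 genes with that many in both together 24.6% were lower and 17.5% higher. For the 785 genes TMM scaling changed those shares to 56.6% and 2.80% and the all-gene median from -0.08 to -0.39. Chil3 was read at 739 UMIs in 144 control monocytes, 1427 CPM (1326 to 1534), and at 50 UMIs in 41 knockdown monocytes, 459 CPM (341 to 605), a log2 ratio of -1.64 (-2.17 to -1.13). A Chil3 UMI was found in 83 of 144 and 12 of 41 cells. The monocyte markers Ly6c2, at 852 and 1009 CPM, and Plac8, at 1951 and 2111 CPM, were not lower in the knockdown. All 8 monocyte markers other than Chil3 were read in both libraries, with summed levels of 15692 and 16894 CPM.

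Neutrophil RNA moved with Chil3 in this small class. All 6 neutrophil markers were read in control monocytes, summing to 1333 CPM, and 3 of 6 in knockdown monocytes, summing to 101 CPM, with S100a9, Retnlg and Cxcr2 at 0. Without the 12 control cells that had 2 or more S100a8 and S100a9 UMIs (the knockdown had 0 such cells), the Chil3 log2 ratio was -1.48. Without cells over 20% tumour RNA it was -1.14. In the monocytes with 2 or more UMIs of Ly6c2, Ccr2 and Plac8, which numbered 117 and 24, Chil3 stood at 1630 and 640 CPM. T cell markers had the opposite order, with 2 of 7 read in control monocytes, summing to 7.73 CPM, and 6 of 7 in knockdown monocytes, summing to 321 CPM. The tumour panel, which includes the monocyte marker Vcan, stood at 18.0% and 33.2%. The part of T cell RNA in the result was not tested. Both the share of monocytes with a Chil3 UMI, 57.6% and 29.3%, and the mean UMIs in those cells, 8.90 and 4.17, were lower in the knockdown, at median depths of 3267 and 2395 UMIs.

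The other members were sparse in monocytes. Msr1 was read at 89 and 4 UMIs, or 172 and 36.7 CPM, a log2 ratio of -2.23 (-4.40 to -0.55). Selenop was read at 54 and 11 UMIs and its log2 ratio was -0.05 (-1.43 to 1.20). For Maf, with 41 and 5 UMIs, the log2 ratio was -0.79 (-2.85 to 0.91), and for Mrc1, with 17 and 7 UMIs, it was 0.97 (-1.03 to 2.79). The ranges of Selenop, Maf and Mrc1 include 0. Folr2 had 3 and 0 UMIs, and Fcna, Cd163, Retnla and Lyve1 had 0 in both libraries.

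Within the macrophage gate, the cells with Chil3 carried monocyte markers. In low-tumour macrophages thinned to 3000 UMIs, the control cells with a Chil3 UMI (72, against 2870 without) carried more of the monocyte antigen Ly6c2, by a log2 ratio of 5.23 (4.69 to 5.77), and more Plac8, by 5.17. Selenop was lower in them, at -0.89 (-1.25 to -0.54). The 10 knockdown cells with a Chil3 UMI had log2 ratios of 4.79 (3.40 to 6.01) for Ly6c2 and 5.54 for Plac8. Low-tumour macrophages with 2 or more UMIs of Ly6c2, Ccr2 and Plac8 numbered 343 of 3537 in the control and 192 of 3148 in the knockdown. Chil3 in them was 212 CPM (194 to 232) and 15.8 CPM (9.18 to 25.2). In the remaining cells it was 11.9 and 0.384 CPM. All low-tumour macrophages of the knockdown held only 22 Chil3 UMIs, so its value in the remaining cells rests on few. Tumour-like cells read Chil3 at 0.510 and 0.059 CPM, and the part of RNA from other cells in these values was not tested. With these limits, the libraries were ordered alike inside and outside the monocyte-marked cells.

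Markers of other cell types were also looked at beside this result. In low-tumour macrophages the 7 T cell markers summed to 58.3 CPM (control) and 90.4 CPM (knockdown), and the 6 endothelial markers, with Prox1 at 0 in both, to 16.5 and 29.2 CPM. The 8 dendritic markers summed to 74.5 and 77.5 CPM, and the 4 NK markers to 2.90 and 7.17 CPM. The part of these cell types in the members' values was not tested. For neutrophils, in all macrophages the 6 markers summed to 68.3 CPM for the control, with all 6 read, and 33.4 CPM for the knockdown, with 5 read and Retnlg at 0, the same order as Chil3. In low-tumour macrophages they summed to 40.3 CPM (control) and 44.9 CPM (knockdown), again with Retnlg at 0 in the knockdown. Only 9 control cells had 2 or more S100a8 and S100a9 UMIs, and they held 102 Chil3 UMIs. Without them Chil3 was 29.4 CPM, against 1.56 CPM in the knockdown, where 0 cells met that limit.

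The amount of C1q, which the macrophage gate itself uses, went with the members in different ways. Low-tumour macrophages were placed in 5 bins of C1q UMIs per 10,000, from 10 to 20 up to 200 or more. Selenop stood at 60.0, 140, 248, 393 and 847 CPM for the control and 47.8, 161, 198, 468 and 748 CPM for the knockdown, so it was higher in each successive bin of both libraries. Mrc1 was likewise higher in each successive control bin, at 41.2, 81.5, 159, 250 and 304 CPM. The knockdown bins had 71.6, 205, 171, 237 and 247 CPM of Mrc1, above the control in the bins under 100 and below it in those from 100. In the bin from 20 to 50 the intervals lay apart, at 54.2 to 118 CPM for the control and 151 to 273 CPM for the knockdown. Chil3 had the opposite order in the control, at 270.0, 268, 197, 26.0 and 15.7 CPM. In the knockdown it was 7.96, 39.3, 1.74, 1.57 and 0.602 CPM, from 1, 9, 1, 5 and 6 UMIs. The control was above the knockdown in every bin, although the knockdown bins hold few UMIs. The tumour panel also differed along the bins, from 11.3% in the lowest to 4.81% in the highest control bin. The part of tumour RNA in the trends was not tested.

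**Figure D3:**
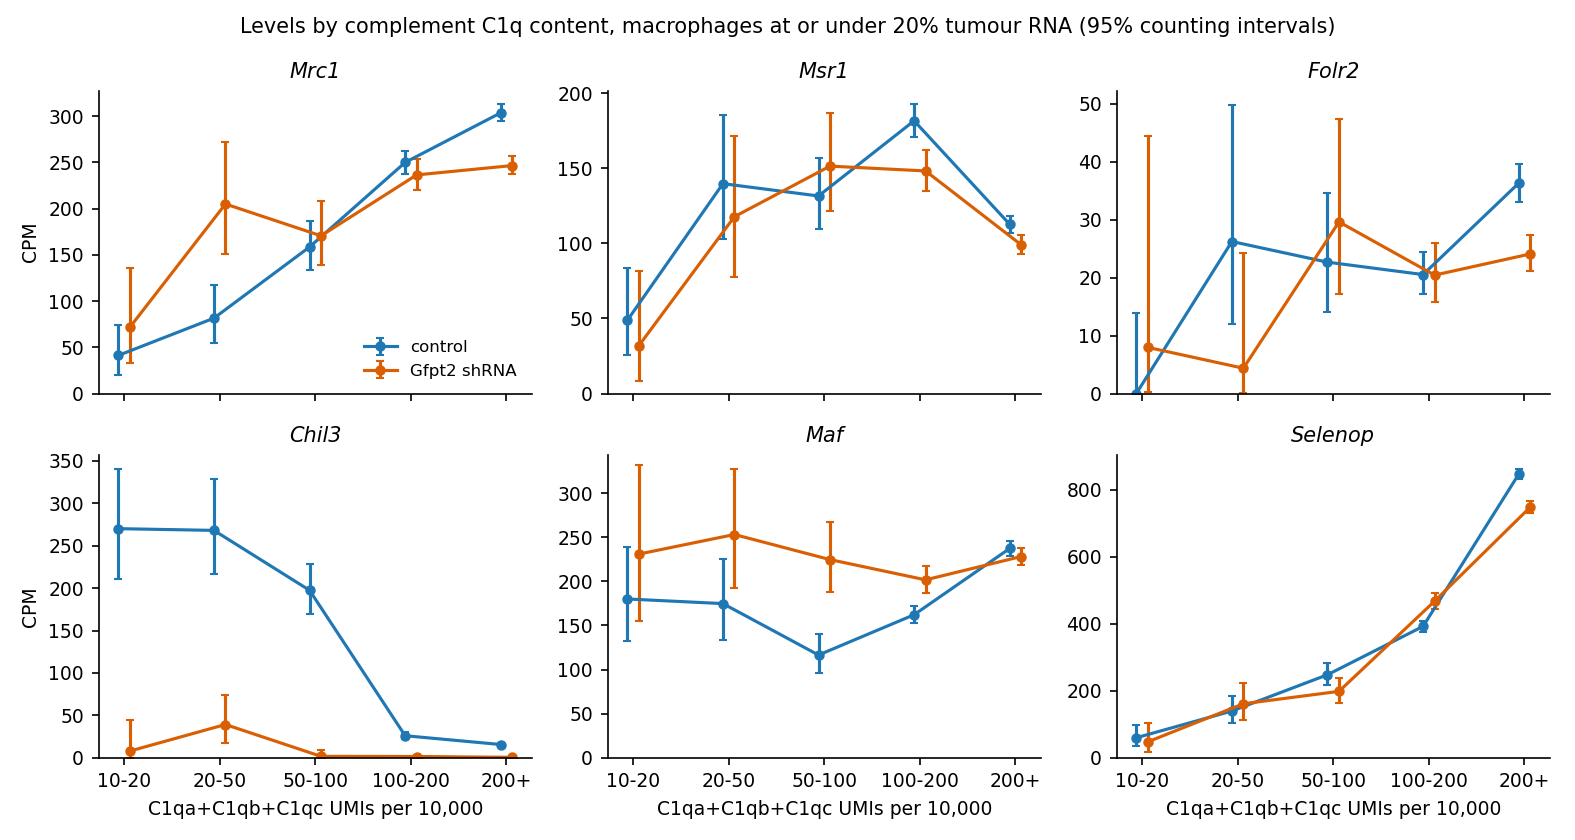
CPM of 6 genes in low-tumour macrophages (vertical axis) by C1qa, C1qb and C1qc UMIs per 10,000 (horizontal axis), control in blue and Gfpt2 shRNA in orange, with 95% counting intervals. Selenop climbs with C1q in both libraries, from 60.0 to 847 CPM in the control, and control Chil3 drops from 270.0 to 15.7 CPM.

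The macrophages were also split by Ifit2 and Oasl1, genes induced by interferon. Cells with 2 or more UMIs of the pair made up 38.6% of control and 50.1% of knockdown low-tumour macrophages, or 27.8% and 43.4% at 3000 UMIs per cell. In both libraries 0 of the 5 members with at least 100 UMIs in each differed by the log2 limit of 0.32, beside 5.61% of 7325 genes that were higher in both and 2.35% that were lower. Over all macrophages the count was also 0, beside 4.27% and 3.62%. With shares this low, a count of 0 among 5 genes says nothing particular about the members. Mrc1 had log2 ratios of high over low cells of -0.23 and -0.15, Msr1 of -0.27 and -0.25, Maf of 0.19 and 0.10, and Selenop of -0.02 and -0.00. Folr2 stood at 0.15 and 0.07, with ranges that include 0. Chil3, which passed in the control alone, was lower in the high cells there, with a log2 ratio of -0.70 (-1.02 to -0.38). Control Fcna, from 25 and 72 UMIs, stood at -1.07 (-2.03 to -0.15).

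**Figure D4:**
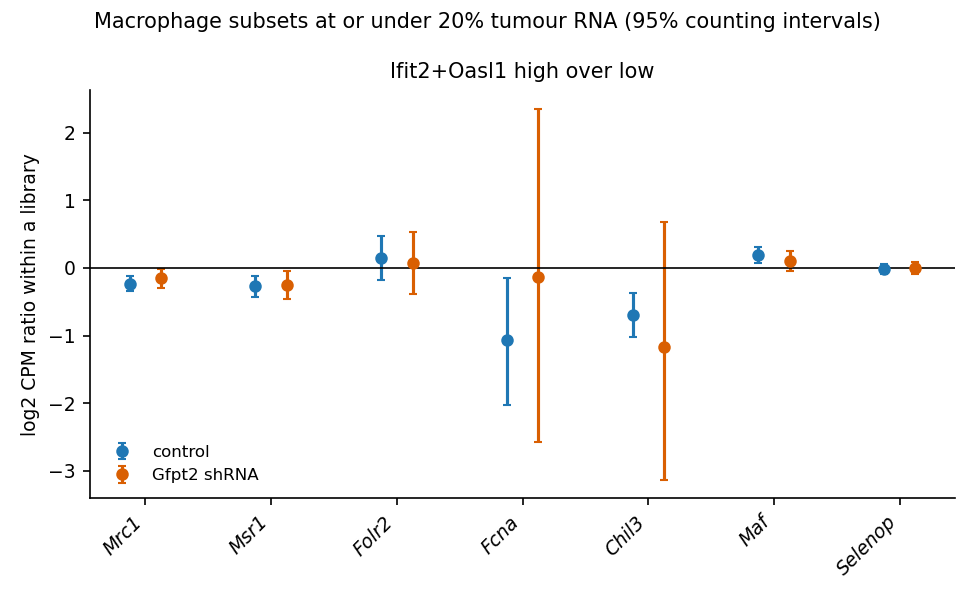
Log2 ratio of CPM within a library, between low-tumour macrophages with 2 or more and under 2 Ifit2 and Oasl1 UMIs, control in blue and Gfpt2 shRNA in orange. Bars are the ranges that the 95% counting intervals allow. Mrc1 and Msr1 lie a little below 0 in both libraries, Maf a little above it, and the knockdown bars of Fcna and Chil3 are wide and cross 0.

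Folr2 was higher in the cells that carried Fcna, although most Folr2 cells had no Fcna UMI. Both genes were read in 13 of the 31 control Fcna cells and in 3 of the 6 knockdown ones. Their separate shares give 1.89 and 0.326 such cells, which makes ratios of 6.89 (3.67 to 11.8) and 9.20 (1.90 to 26.9), from fewer than the 10 expected cells that were set as a minimum for such pairs. Control low-tumour macrophages with a Fcna UMI at 3000 UMIs per cell had more Folr2 by a log2 ratio of 3.93 (3.23 to 4.59), and the knockdown ones by 3.35 (1.24 to 4.96). Cells with a Folr2 UMI, 179 and 116, had more of the carbonyl reductase Cbr2, by 3.15 and 2.40, and of the chemokine Ccl8, by 0.96 and 0.81. They had less Ccr2, the receptor that brings monocytes into tissue, by -2.47 and -2.61. Cells with an Msr1 UMI had more Mmp12, an elastin-cleaving enzyme, by 0.78 and 1.76. Cells with an Mrc1 UMI had more Maf, by 0.62 and 0.32, and less Mmp12, by -1.20 and -0.89. Mrc1 and Maf were read in the same cell 1.16 times as often in the control as their separate shares give, with a lower bound of 1.07, and 1.11 times in the knockdown, with a lower bound of 1.01. These cells come from 1 library per group and are not replicates.

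Among the classes other than macrophages and monocytes, the level of Maf was highest in T cells and that of Selenop in endothelial cells. In T cells Maf stood at 56.3 and 59.3 CPM, beside 190 and 165 CPM in macrophages. It stood at 79.2 and 45.9 CPM in monocytes and 4.37 and 5.78 CPM in tumour-like cells. The T cell class itself held tumour RNA at 55.8% and 41.0% of the tumour level, and its part in the Maf level was not tested. In NK cells Maf stood at 18.8 and 32.7 CPM, from 6 and 10 UMIs. Selenop stood at 333 and 306 CPM in endothelial cells, of which there were only 9 and 11. These cells held tumour RNA at 89.9% and 78.0% of the tumour level, beside a Selenop level of 4.67 and 6.70 CPM in tumour-like cells themselves. Mrc1 was 1.02 and 0.903 CPM in tumour-like cells, and Chil3 was 0.510 and 0.059 CPM. A further 36 control cells with an intermediate C1q level of 5 to 10 per 10,000 and at least 20 of Lyz2 held 156 Chil3 UMIs at 1324 CPM, and the 19 such knockdown cells held 3 UMIs at 55.5 CPM. Among the cells of no class, a further 544 in the control held 108 Chil3 UMIs at 10.1 CPM and 494 in the knockdown held 2 UMIs at 0.252 CPM.

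**Figure D5:**
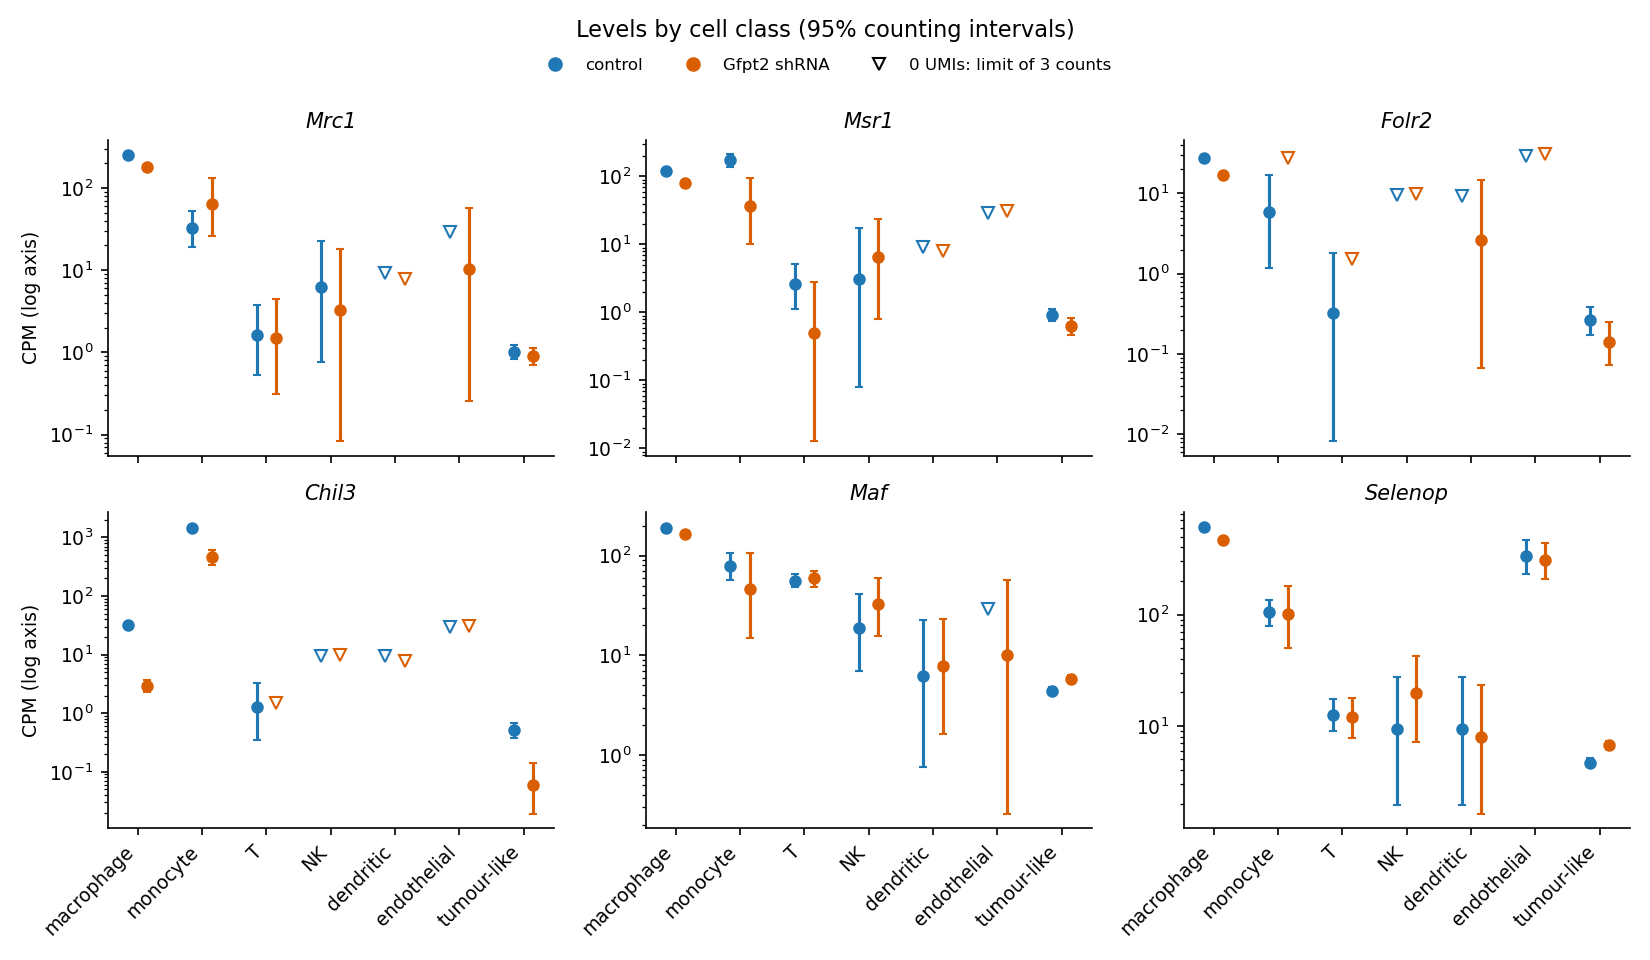
CPM (log axis) of 6 genes in 7 cell classes, control in blue and Gfpt2 shRNA in orange, with 95% counting intervals and triangles at the limit set by 0 UMIs. Control Chil3 stands at 1427 CPM in monocytes and 31.6 CPM in macrophages, Selenop stands at 606 and 468 CPM in macrophages and at 333 and 306 CPM in endothelial cells, and T cells carry Maf at 56.3 and 59.3 CPM.

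Genes of related function were counted from lists of the same pathways, with the same limit and at least 100 UMIs in either library. The shares of all genes to read them against are the 5.79% lower and 23.2% higher of all macrophages, and the 7.08% and 6.49% of low-tumour macrophages. Of 19 other scavenger and lectin genes, 12 passed, 7 were lower and 0 higher in all macrophages, with a median of -0.33. In low-tumour macrophages 1 was lower and 1 higher, near the all-gene shares, with a median of -0.01. The lipoprotein receptor Lrp1 was lower in both sets, at 192 and 131 CPM in all macrophages (-0.55) and at -0.47 in low-tumour ones. Stab1, a scavenger receptor for modified lipoproteins, was -0.47 and -0.15, and Clec10a was -0.53 and -0.13. The lectin Mgl2 was 0.06 and 0.40, the lipoprotein receptor Scarb1 0.30 and -0.01, and the lysosomal receptor Scarb2 -0.02 and 0.12. Marco and Timd4 did not pass.

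Of 19 genes of the interleukin-4 response, 13 passed, with 4 lower and 2 higher in all macrophages (median -0.07) and 2 lower and 3 higher in low-tumour macrophages (median -0.05). With the minimum on both libraries together 14 passed, with 5 and 3 lower, the addition being the chemokine Ccl17, and the same numbers higher. In all macrophages Ccl17 was -0.61, with a range of -1.34 to 0.11 that includes 0. The chemokines Ccl22 and Ccl24 passed neither minimum and had the opposite order there. Ccl22, with 7 and 38 UMIs, was 2.57 (1.03 to 4.34), and Ccl24, with 24 and 37 UMIs, was 0.76 (-0.32 to 1.86). Ear2, an eosinophil-type ribonuclease with 122 and 70 UMIs in all macrophages, was -0.67 and -0.93, and passed the first minimum only through the control, where it is high. Cd200r1 was -0.52 and -0.22, and Il1rn, the interleukin-1 receptor antagonist, was -0.47 and -0.15. Socs1, a feedback inhibitor of cytokine signalling, was 0.31, just under the limit, in all macrophages and 0.47 in low-tumour ones. The 2 higher genes in all macrophages were Fn1, which encodes fibronectin, at 0.40, and the growth regulator Myc, at 0.46. In low-tumour macrophages Fn1 was -0.71 and Myc -0.12, with a range of -0.39 to 0.14 for Myc that includes 0. Beside all-gene shares of 5.79% and 23.2%, 2 higher of 13 in all macrophages is not above the share of all genes.

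Of 17 genes of resident macrophages, 12 passed. In all macrophages 7 were lower and 0 higher (median -0.53), and in low-tumour macrophages 4 were lower and 2 higher (median -0.18), beside the same all-gene shares of 5.79% and 23.2%, and 7.08% and 6.49%. Cbr2, with 311 and 98 UMIs in all macrophages, stood at 13.1 and 4.51 CPM there (-1.54) and at -1.17 in low-tumour ones. It too passed only through the control, and with the minimum on both libraries together the list's counts were the same. Ltc4s, which makes leukotriene C4, was -0.78 and -0.43, and Gas6, a bridging ligand for dying cells, was -0.73 and -0.38. Cd72 was 0.12 and 0.45, and Pltp, which moves phospholipids between lipoproteins, was -0.16 and 0.10.

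The last lists hold genes of haem, iron and selenium handling, with the prostaglandin synthase Hpgds, and genes of interleukin-10 and glucocorticoid responses. In low-tumour macrophages their counts lie near what 7.08% lower and 6.49% higher give for lists this short, so they say nothing particular about these pathways. Of 12 haem and iron genes, 11 passed, with 1 lower and 1 higher in all macrophages and 0 in either direction in low-tumour ones (median 0.06). The haem-degrading enzyme Hmox1 was -0.49 and -0.15, and the transferrin receptor Tfrc was 0.79 and 0.15. Blvra, which makes bilirubin, was -0.27 and -0.07, and Trf, which encodes transferrin, -0.25 and 0.08. Fth1, the ferritin heavy chain, was -0.10 and 0.21, and Fech, which puts iron into haem, -0.02 and -0.25. Of 14 selenium genes, which include the enzymes that use what Selenop carries, 13 passed, with 1 lower and 2 higher in all macrophages and 0 in either direction in low-tumour ones (median -0.08). The 2 higher genes were Sepsecs, which makes selenocysteine on its transfer RNA, at 0.54 and 0.07, and the selenoprotein gene Selenot, at 0.34 and 0.12. Selenow was 0.29 and 0.14. Msrb1, which repairs oxidised methionine, was -0.48 and -0.22, the selenoenzyme Gpx1 -0.28 and -0.08, and Sephs2, which makes selenophosphate, -0.22 and -0.25. With the minimum on both libraries together the receptor Lrp8 joined as the third higher gene in all macrophages. All 11 genes of the interleukin-10 and glucocorticoid list passed, with 3 lower and 1 higher in all macrophages (median -0.20) and 1 and 1 in low-tumour ones (median 0.01). Fkbp5, a glucocorticoid-induced chaperone partner, was -0.50 and -0.56, and the receptor chain Il10rb was 0.34 and 0.56. Il10 itself was -0.39 and -0.12, Tgfb1 -0.38 and -0.15, the glucocorticoid receptor Nr3c1 0.18 and 0.20, and Stat3 0.02 and 0.01.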

How the data were processed

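Single cells were captured on the 10x Genomics platform, as 1 control and 1 Gfpt2 shRNA library. The deposited values are raw counts, the UMIs of each gene in each cell. Per the file headers they come from Cell Ranger 6.1.0, and per the submitters' processing notes from version 3.1.0. The genome build, annotation and the authors' cell filters are not given in the sources used here.

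Cells with under 200 genes or over 20% mitochondrial UMIs were left out. So were 1148 and 1322 doublets, the highest Scrublet scores (Scanpy 1.11.5) at 0.8% per 1000 cells. UMIs were summed per library and class in Python 3.11.15 (NumPy 2.4.6, SciPy 1.17.1, pandas 2.3.3), divided by the class total and given as CPM, with exact Poisson intervals for levels and exact Clopper-Pearson intervals for shares, at 95%. Reads of 1 molecule share a UMI, so these intervals cover counting of molecules only. A count of 0 was taken to allow up to 3 counts. A gene was called higher or lower from a log2 ratio of 0.32 with at least 100 UMIs in 1 of the cell sets compared, or 100 in each library where both were needed. A minimum of 100 on both libraries together was an alternative. No test exists with 1 library per group. The calculation was tested on simulated counts.

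The tumour panel holds the 97 genes that had, in both libraries, at least 100 CPM in tumour-like cells and at least 10-fold the level (plus 1 CPM) of cells with 200 or more C1q UMIs per 10,000. Tumour-like cells had 0 Ptprc and 0 Xist UMIs, under 5 C1q and under 20 Lyz2 UMIs per 10,000, and no marker of T, NK, dendritic or endothelial cells at the set limits. Scaling factors came from edgeR 4.0.16 in R 4.3.3. The figures were drawn with Matplotlib 3.10.9.

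The genes named were all 10 members, and of each related list the 3 highest and the 3 lowest log2 ratios in all macrophages among genes with at least 100 UMIs. The class markers were also named. A further split of the macrophages, with the results that rest on it, and 1 gene of the resident and macrophage lists are not reported here. Marco, Timd4, Ccl17, Ccl22, Ccl24, Lrp8, Hpgds and the genes read in cells positive for a member were named after their values were seen. Members, lists and gates were chosen with earlier results of these data known.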

Additional observations from a re-analysis of the deposited data

Results flagged for a closer look

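Maf was read at 5.78 CPM in the tumour-like cells of the knockdown library, above the 4.37 CPM of the control tumour-like cells. Selenop was read there at 6.70 CPM, above 4.67 CPM in the control. Both were noted because the tumour-like cells served only as a background for the macrophage values. Their macrophage levels were 165 and 468 CPM in the knockdown, and the part of RNA from macrophages in these values was not tested.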

How the results depend on the processing

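The limits are those of 1 library per group: nothing here measures the spread between tumours, and leaving out a library was not possible. No paired analysis was possible because each group has 1 library. In all macrophages the 6 lower members became 2 at a C1q limit of 100 and at 200 per 10,000, and 2 without cells over 10% or over 20% tumour RNA, in each case of 6 members passing. The shares of all genes that were lower and higher were then 6.77% and 7.15%, 5.63% and 5.78%, 7.34% and 6.51%, and 7.08% and 6.49%. The median, -0.59, was -0.27 and -0.25 at those C1q limits, -0.24 and -0.23 at those tumour limits, -0.33 without cycling cells, -0.42 with Scrublet's own threshold and -0.73 with TMM scaling. The count of higher members was 0 in all 19 alternatives. The log2 ratio ranged over them from -5.01 to -3.18 for Chil3, -2.34 to -1.75 for Fcna, -0.87 to -0.39 for Folr2 and -0.35 to 0.10 for Maf. In monocytes 3 members were lower at a minimum of 20 UMIs and 3 with no minimum, where 1 was higher and the median was -0.79. Of all genes 30.2% were lower and 28.0% higher at 20 UMIs (4 members passing), and 23.5% and 48.3% with no minimum (5 members passing). Maf in monocytes turned from -0.79 to 0.41 with every cell weighted equally and to 0.16 at a C1q limit of 2. Monocyte Chil3 ranged from -2.04 to -1.14. Between Ifit2 and Oasl1 high and low cells of all knockdown macrophages, Chil3 was higher in the high cells. It stood there at 3.97 CPM from 45 UMIs, 37 of them from 1 cell over 20% tumour RNA, against 1.82 CPM from 19 UMIs. Its log2 ratio turned to -2.68 in thinned cells and -1.17 without cells over 20% tumour RNA. In the thinned cells and in those under 20% tumour RNA the values rest on fewer cells. The cause of the other changes was not tested. The alternatives on tumour RNA, on C1q limits of 100 and 200, on S100a8 and S100a9 and on the UMIs of both libraries together were chosen after seeing the data.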
